A study of Mus musculus with 24 samples.

Results

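Complement genes were followed across sorted mouse lung macrophages. They comprise 10 genes, namely C1qa, C1qb, C1qc, C3, C4b, Cfb, Cfp, Hc, C3ar1 and C5ar1, taken by gene symbol from the 49022 genes that both deposited count tables share. All 10 were found, each with the same coordinates in both tables. They passed the low-count filter in every comparison, except Hc in the comparison of the gates at day 14.

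Polyadenylated RNA was sequenced in 24 libraries, in 8 groups of 3. Cells sorted as CD11b+ SiglecF- are termed interstitial macrophages (IMs) below, and those sorted as CD11b- SiglecF+ alveolar macrophages (AMs). Wild-type C57BL/6J mice gave IMs at day 7 after intratracheal PBS or after bleomycin (3 µg per g body weight), which damages the lung and leads to scarring. Knock-in mice in which EGFP reports Spp1 (osteopontin) gave the other 6 groups. After bleomycin, IMs were split into EGFP- and EGFP+ cells at day 7 and sorted as EGFP+ at day 14, and EGFP+ AMs were taken at days 14 and 30. The remaining group held EGFP+ AMs taken 7 days after PBS. The knock-in mice have no PBS IM group, and the wild-type mice have no AM group. The labels do not say whether libraries of a group came from separate mice, nor whether the reporter allele was carried on 1 or both chromosomes, so p-values measure only the spread between these libraries. Total counts ran from 13450053 to 24580620 per library.

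The gates were checked with the genes of the sort. Group means of Itgam, which encodes CD11b, were 218 to 379 CPM (read counts scaled to the library's total) in the IM groups against 7.32 to 26.1 CPM in the AM groups. Siglecf was at 122 to 415 CPM in the AM groups, and the IM groups held 7.42 to 25.1 CPM of it. Mean Spp1, the gene that EGFP reports, was 518 CPM in EGFP- IMs. EGFP+ IMs held 4103 CPM at day 7 and 5898 CPM at day 14. EGFP+ AMs held 202 CPM after PBS, less than the EGFP- IMs, 4808 CPM at day 14 and 6822 CPM at day 30. Wild-type IMs, which carry no reporter, held 91.3 CPM after PBS and 3437 CPM after bleomycin. The EGFP+ groups thus did not share one level of Spp1. Replicate 1 of the day 14 IMs stood apart from replicates 2 and 3. It had 2.43 CPM of Siglecf against 9.57 and 10.3 CPM, and 336 CPM of Itgam against 184 and 151 CPM. Wild-type IMs after PBS held the highest levels of epithelial and neutrophil markers. The summed level of 11 lung epithelial markers was 4554 to 6737 CPM there and 19.6 to 337 CPM in the other 7 groups, and that of 10 neutrophil markers was 7447 to 8879 CPM there and at most 6075 CPM elsewhere.

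Complement is a cascade of plasma and tissue proteins that tags particles and cells for removal. In the classical pathway C1q, built from chains A, B and C, binds its target and starts the cleavage of C4 and then of C3. In the alternative pathway factor B (Cfb) and properdin (Cfp) form and stabilise an enzyme that cleaves more C3, and cleavage of C5 (encoded by Hc) opens the terminal pathway. The fragments C3a and C5a act on cells through the receptors C3ar1 and C5ar1. The liver makes most circulating complement, whereas C1q is made largely by macrophages and their relatives.

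The C1q genes lie side by side on chromosome 4 of GRCm38, all on the minus strand: C1qb (ENSMUSG00000036905) at 136880129 to 136886187, C1qc (ENSMUSG00000036896) at 136889804 to 136893065 and C1qa (ENSMUSG00000036887) at 136895917 to 136898803. Promoter sequences of RefSeq on GRCm38.p6 were held for 7 of the 10 genes. Those of C1qb, C1qc and C3ar1 are shown because these genes moved together in several comparisons. Only bases outside the deposited gene models are printed. They run 5′ to 3′ on the gene's strand, and capitals mark matches on either strand to GAGGAA, a core of PU.1 sites, or to TGCTGA, a core of the sites bound by Maf factors. Both factors are known in macrophages.
C1qb, chr4:136886201-136886450, minus strand: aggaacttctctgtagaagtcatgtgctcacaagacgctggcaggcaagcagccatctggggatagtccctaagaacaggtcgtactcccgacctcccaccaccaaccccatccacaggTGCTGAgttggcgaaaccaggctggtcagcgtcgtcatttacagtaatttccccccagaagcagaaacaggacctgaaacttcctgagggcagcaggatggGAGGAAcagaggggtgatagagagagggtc
C1qc, chr4:136893066-136893164, minus strand: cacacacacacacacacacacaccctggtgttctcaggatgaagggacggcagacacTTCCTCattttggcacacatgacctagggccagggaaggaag
C3ar1, chr6:122856162-122856407, minus strand: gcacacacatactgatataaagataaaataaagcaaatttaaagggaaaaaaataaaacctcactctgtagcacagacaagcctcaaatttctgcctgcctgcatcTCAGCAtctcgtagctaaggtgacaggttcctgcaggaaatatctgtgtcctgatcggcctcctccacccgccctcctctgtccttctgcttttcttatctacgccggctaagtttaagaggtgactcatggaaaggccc
In 250 bases before the start, GAGGAA was found on either strand in 2 of the 7 promoters (C1qb and C1qc) and in 23.3% of 32851 mouse promoters. TGCTGA was found in 4 (C1qb, C3, C3ar1 and C5ar1) and in 16.1% of all promoters. TTNNGNAA, a C/EBP core, was found in 3 (C1qc, C3 and C5ar1) and in 36.8% of all. In the promoter of C3 it matched at 3 positions within 70 bases of the start. The interferon motif ISRE (2.98% of all promoters), the STAT motif TTCNNNGAA (7.02%) and the NF-kB motif (1.21%) were found in 0 of the 7. The matches of C5ar1 and the TTNNGNAA match of C1qc lie inside the deposited gene models. All matches are a description of letters in the windows.

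**Figure D1:**
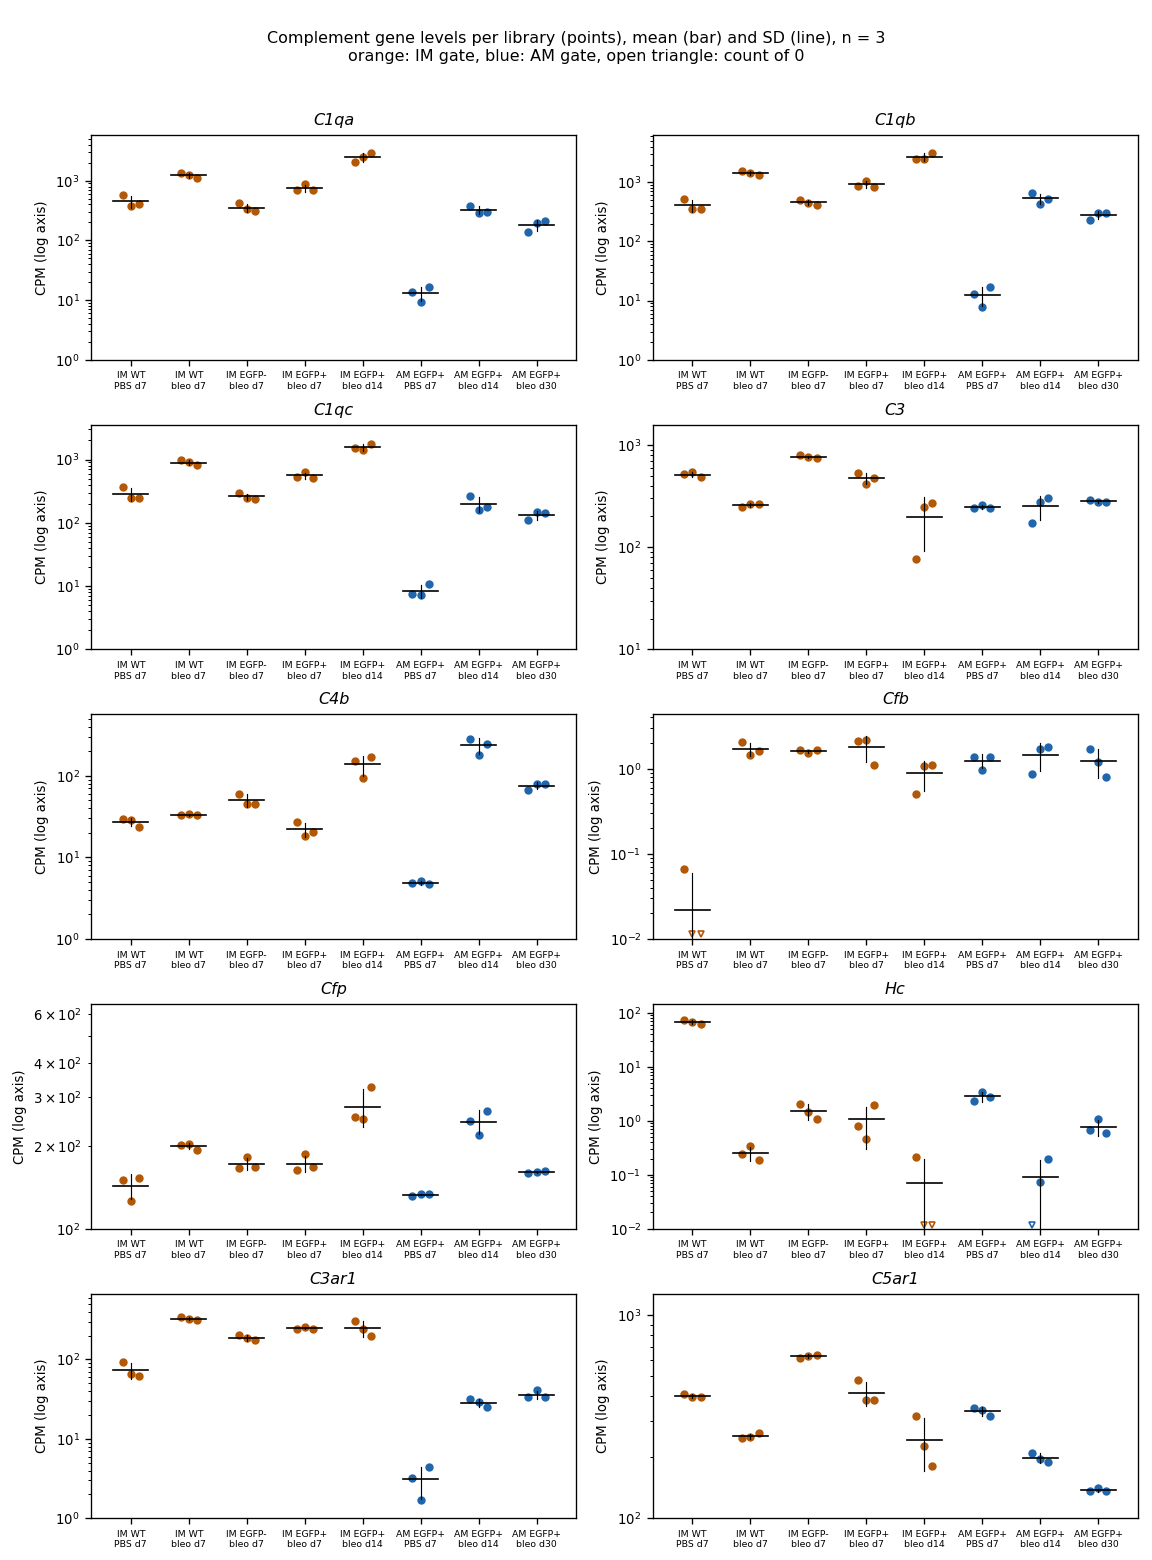
Level of each of the 10 complement genes in every library, in CPM on a log axis, for the 8 groups (orange, IM gate; blue, AM gate; bar, mean; line, SD; n = 3; open triangle, a count of 0). The C1q chains, C4b and C3ar1 were lowest in the AMs after PBS, Hc was highest in the wild-type IMs after PBS, and Cfb stayed at or below 2.18 CPM in all libraries.

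Levels compared between genes are in CPM per kb of exon. In EGFP+ IMs at day 14, C1qb (2486) and C1qa (2395) ranked 13 and 14 among all 49022 genes, and C1qc (813) ranked 47. Properdin followed at 160 and C5ar1 at 94.4, then C3ar1 at 57.8, C3 at 38.8 and C4b at 24.3, with Cfb at 0.318 and Hc at 0.0114. In AMs after PBS the order was different, with C5ar1 at 131, Cfp at 76.6 and C3 at 48.3 above C1qa at 12.8, C1qb at 11.5 and C1qc at 4.36. There C4b was at 0.858, C3ar1 at 0.723, Hc at 0.451 and Cfb at 0.44.

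Each comparison was tested with edgeR's quasi-likelihood F test over all genes that passed the filter, with calls made at an adjusted p (Benjamini-Hochberg) under 0.05. In wild-type IMs at day 7, 7 complement genes rose and 3 fell after bleomycin, where 70.2% of the 15496 genes tested were called, 35.6% higher and 34.5% lower. Their median log2 fold change was 0.93, against 0.0038 over all genes. In EGFP+ against EGFP- IMs at day 7, 4 of the 10 were higher (17.2% of all genes) and 2 lower (17.6%, 34.8% in all), with a median of 0.032 against -0.015. That comparison called 5206 genes, and 3280 without replicate 2 of the EGFP+ IMs. From day 7 to day 14 in EGFP+ IMs, 5 rose (25.3% of all genes) and 2 fell (26.9%, 52.2% in all), with a median of 0.57 against -0.0046. In EGFP+ AMs, 6 were higher and 2 lower than after PBS at day 14 (27.3% and 27.6% of all genes, 54.9% in all) and at day 30 (24.8% and 23.1%, 47.9% in all). The medians were 2.24 against -0.011 at day 14 and 2.03 against 0.022 at day 30. These AM comparisons share the PBS libraries, and the comparisons of EGFP+ with EGFP- IMs and of day 14 with day 7 share the EGFP+ day 7 libraries. From day 14 to day 30, 1 gene rose (19.6% of all genes) and 6 fell (18.7%, 38.4% in all), with a median of -0.63 against 0.012. At day 14, 4 of the 9 genes tested were higher in EGFP+ IMs than in EGFP+ AMs (10.8% of all genes) and 0 lower (10.2%, 21% in all), with a median of 0.39 against 0.0053. That comparison called 2832 genes, 1840 and 1881 without replicates 2 and 3 of the day 14 AMs, and 5906 with all 24 libraries fitted together, where 7 complement genes were called, 6 of them higher in IMs. After PBS, 1 gene was higher in EGFP+ AMs than in wild-type IMs (39.7% of all genes) and 8 were lower (39.2%, 78.9% in all), with a median of -3.52 against 0.0068. When the bleomycin effect in AMs at day 14 was tested against that in wild-type IMs, 9 of the 10 differed (39% of 16687 genes). In most of these comparisons a large share of all genes was called, so the count of complement genes is read against that share. The groups of the IM day 14 against day 7 comparison and of each AM bleomycin against PBS comparison sit in different deposited tables, so that a difference between tables cannot be told apart from one between groups. In a bulk library, fewer cells of a type and less RNA per cell cannot be told apart either.

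**Figure D2:**
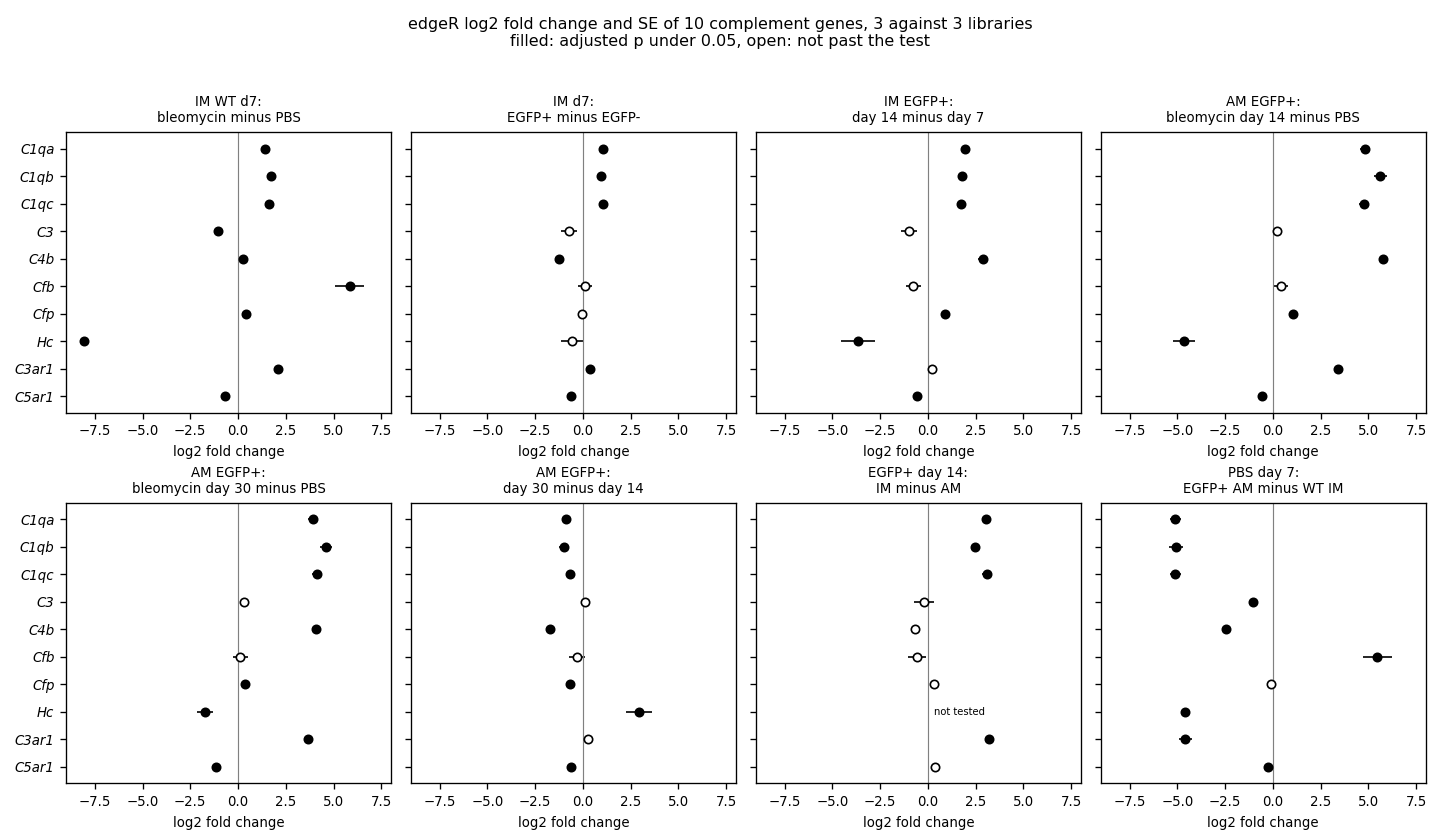
Log2 fold change of the 10 complement genes in each of the 8 comparisons, with the SE from the edgeR fit as a line (3 against 3 libraries; filled, adjusted p under 0.05; open, not past the test). C1qa, C1qb and C1qc lie on the same side of 0 in each comparison, up to 5.62 for C1qb in AMs at day 14 after bleomycin, and Hc lies at -8.04 in wild-type IMs after bleomycin.

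The 3 C1q chains had their highest level in EGFP+ IMs at day 14 and their lowest in AMs after PBS. C1qa in the AMs after PBS was at 13.7, 9.48 and 16.6 CPM. At day 14 after bleomycin the AMs held 385, 287 and 302 CPM, and at day 30 they held 141, 200 and 209 CPM. The ranges of the 3 AM groups did not overlap. C1qa thus rose 28.1-fold from PBS to day 14 (log2 fold change 4.81 ± 0.25 SE, adjusted p = 4.0e-07) and was 15.1-fold higher at day 30 (3.91 ± 0.24, adjusted p = 1.6e-06), each with 3 against 3 libraries. C1qb rose 49.3-fold and C1qc 27.5-fold by day 14, and they were 24.6-fold and 17.3-fold above PBS at day 30. Markers of other cells moved in the same AM libraries. Of 10 resident IM markers, 3 were higher and 1 lower than after PBS at day 14 and 5 were higher and 1 lower at day 30 (median log2 fold change 0.13 and 1.51). Their sum was nearly all Mrc1, a mannose receptor that AMs also make (sums of 1807 to 1846 CPM after PBS, 1227 to 2617 at day 14 and 1170 to 1287 at day 30), while Stab1, a scavenger receptor, had group means of 6.79, 13.4 and 27.5 CPM. Of 10 AM markers, 1 was higher and 6 were lower than after PBS at each day, and Siglecf, a gene of the sort, was 2.98-fold lower at day 14. Of 8 classical monocyte markers, 4 were higher and 3 lower than after PBS at day 14, and 4 were higher and 0 lower at day 30. Their sum went from 12925 to 14591 CPM after PBS to 20100 to 27487 CPM at day 14 and 17816 to 19207 CPM at day 30. Most of that sum was Chil3, which is also among the AM markers, with group means of 12436, 15240 and 13660 CPM. Its member Fn1 had group means of 1101, 7319 and 4484 CPM. The part of these cells in the complement levels of AMs was not tested.

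Between day 14 and day 30 the chains fell in AMs. C1qa fell by 0.90 on the log2 scale (SE 0.21, adjusted p = 0.00901), C1qb by 1.0 (adjusted p = 0.0209) and C1qc by 0.67 (adjusted p = 0.0346). The calls of C1qb and C1qc did not hold in every setting. Without the low-count filter the adjusted p was 0.0513 for C1qb and 0.0876 for C1qc. For C1qb it was 0.0647 and 0.0538 without replicates 1 and 3 of the day 14 AMs, and 0.0516 without replicate 1 of the day 30 AMs. For C1qc it was 0.0583 without replicate 3 of the day 14 AMs, and 0.0783 and 0.0511 without replicates 1 and 3 of the day 30 AMs. Markers of other cells also moved over these days. All 7 fibroblast markers tested were higher at day 30 (mean sums of 6.49 and 90.5 CPM), as were all 8 B cell markers. Also higher were 8 of 9 neutrophil markers (1 lower), 8 of 10 epithelial markers (1 lower) and 6 of 7 NK and T cell markers. Of 10 AM markers 4 were higher and 2 lower. The part of these cells in the falls of C1q, C4b and Cfp was not tested.

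In the IM gate, wild-type cells held C1qa at 572, 374 and 404 CPM after PBS and at 1359, 1247 and 1131 CPM after bleomycin, with no overlap. The rise was 2.68-fold (log2 fold change 1.42 ± 0.20, adjusted p = 0.00299). C1qb rose 3.36-fold (adjusted p = 0.0012) and C1qc 3.03-fold (adjusted p = 0.0021). Over the same groups all 10 nonclassical monocyte markers were lower after bleomycin, with the mean sum going from 6050 to 2118 CPM. Of 8 classical monocyte markers 5 were higher and 3 lower, and their sum went from 2768 to 2849 CPM to 8128 to 8497 CPM. Of the resident IM markers 6 were higher and 3 lower. All 10 neutrophil markers were lower, with the mean sum going from 8032 to 1615 CPM. Of 11 lung epithelial markers 10 were lower and 1 higher, and their mean sum went from 5509 to 94.6 CPM. The part of these cells in the levels of C1q and C3ar1 was not tested. At day 7 the EGFP- IMs held 418, 336 and 306 CPM of C1qa and the EGFP+ IMs 701, 873 and 702 CPM. The chains were 2.08-fold (C1qa), 1.96-fold (C1qb) and 2.08-fold (C1qc) higher in the EGFP+ cells, with adjusted p of 8.6e-04, 5.9e-04 and 2.0e-04. All 10 neutrophil markers were lower in the EGFP+ cells. Of 8 AM markers tested 6 were higher and 0 lower, and of 8 dendritic cell markers 0 were higher and 4 lower. Of 8 classical monocyte markers 1 was higher and 4 lower, and of 10 resident IM markers 2 were higher and 0 lower. The part of these cells in the levels of C1q, C3, C4b and C3ar1 was not tested. At day 14 the EGFP+ IMs held 2073, 2483 and 2916 CPM of C1qa, above every other library of the series. C1qa was 3.86-fold above day 7, C1qb 3.41-fold and C1qc 3.28-fold, with adjusted p of 5.3e-06, 3.5e-06 and 2.1e-06. The mean sum of the resident IM markers went over the same days from 1109 to 2771 CPM (4 higher, 1 lower), with mean Mrc1 at 401 and 1690 CPM. At day 14 that sum was 4393 CPM in replicate 1, the library that stood apart, and 2347 and 1572 CPM in replicates 2 and 3. All 10 neutrophil markers, 6 of 8 B cell markers and 7 of 8 dendritic cell markers were lower at day 14. Their part in the C1q levels was not tested. The 3 chains together took 0.607% to 0.784% of the counts of each day 14 IM library and 0.00243% to 0.0044% of each PBS AM library.

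The order of the group means of C1qa ran from EGFP+ IMs at day 14 (2491 ± 422 CPM, mean ± SD, n = 3) through wild-type IMs after bleomycin (1246 ± 114), EGFP+ IMs at day 7 (759 ± 99.2), wild-type IMs after PBS (450 ± 106), EGFP- IMs (353 ± 58.1), AMs at day 14 (325 ± 52.3) and AMs at day 30 (183 ± 36.8) to AMs after PBS (13.3 ± 3.59). The libraries of neighbouring groups overlapped only from wild-type IMs after PBS to EGFP- IMs and from these to AMs at day 14. Between gates, the EGFP+ IMs at day 14 held 8.38-fold more C1qa than the EGFP+ AMs of that day, 5.50-fold more C1qb and 8.48-fold more C1qc (adjusted p of 8.9e-06, 3.5e-05 and 1.0e-05). After PBS the EGFP+ AMs held 34.3-fold less C1qa than wild-type IMs, 33.6-fold less C1qb and 34.5-fold less C1qc, where gate, genotype and EGFP sort cannot be told apart.

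The chains did not keep a fixed proportion. The level of C1qb was 0.889 to 0.951 times that of C1qa in wild-type IMs after PBS and 0.815 to 1.01 times in AMs after PBS. It was 1.5 to 1.73 times that of C1qa in AMs at day 14 and 1.48 to 1.62 times at day 30, above all other libraries. In IMs after bleomycin the ratio lay between, at 1.12 to 1.17 in wild-type cells, 1.20 to 1.38 in EGFP- cells, 1.21 to 1.25 in EGFP+ cells at day 7 and 1.01 to 1.19 at day 14. The ratio of C1qc to C1qa ran from 0.549 to 0.791 over all 24 libraries. These ratios of CPM were computed after the values were seen and carry no test. They compare a gene ratio between libraries and say nothing of the ratio of chains per cell.

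**Figure D3:**
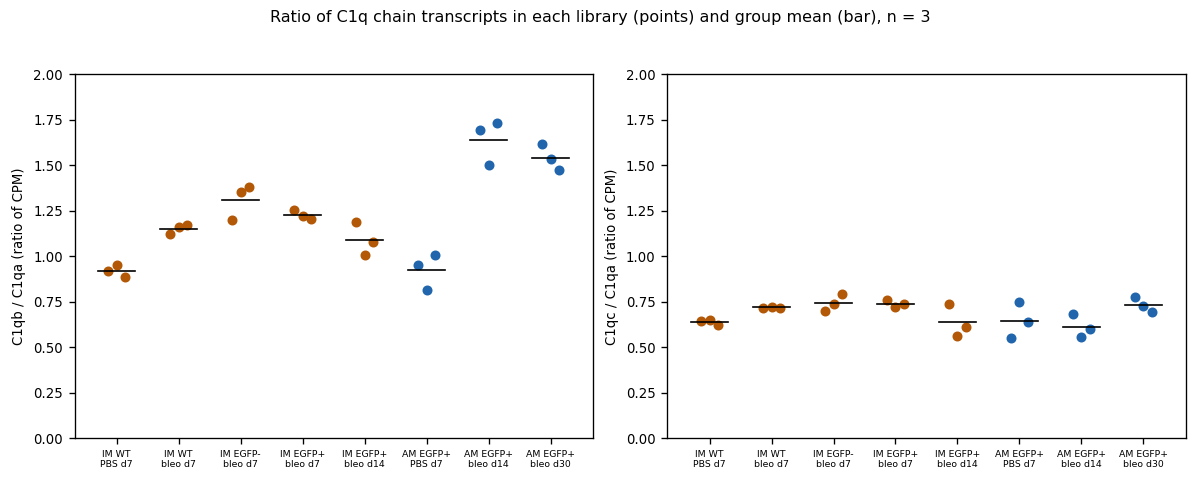
Ratio of C1qb to C1qa (left) and of C1qc to C1qa (right) in each library, as a ratio of CPM, for the 8 groups (orange, IM gate; blue, AM gate; bar, group mean; n = 3). The AM libraries at days 14 and 30 lie at 1.48 to 1.73 on the left and within 0.555 to 0.775 on the right.

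C4b (ENSMUSG00000073418, chromosome 17, 34728380 to 34743882, minus strand) encodes complement C4, which C1 cleaves. Its largest change was in AMs, at 4.87, 5.13 and 4.66 CPM after PBS and 284, 181 and 244 CPM at day 14 after bleomycin. It rose 54.9-fold (log2 fold change 5.78 ± 0.18, adjusted p = 1.4e-11). At day 30 it was at 67.3, 80 and 80.5 CPM, 16.7-fold above PBS (adjusted p = 4.3e-10) and 3.28-fold below day 14 (adjusted p = 9.6e-07). EGFP+ IMs held 27, 18.5 and 20.7 CPM at day 7 and 152, 94.5 and 168 CPM at day 14, a 7.32-fold rise (adjusted p = 1.3e-05). Unlike the C1q chains, C4b was lower in EGFP+ than in EGFP- IMs at day 7 (22 ± 4.4 against 50.6 ± 8.72 CPM, 2.37-fold, adjusted p = 0.0032). In wild-type IMs it was 27.2 ± 3 CPM after PBS and 33.1 ± 0.639 CPM after bleomycin, 1.18-fold higher with an adjusted p of 0.0192. That call was lost with DESeq2 (adjusted p = 0.0599), with all 24 libraries fitted together (0.393), without replicate 3 of the PBS IMs (0.0896) and without replicate 2 of the bleomycin IMs (0.0506).

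Between gates at day 14, C4b was at 138 ± 38.8 CPM in IMs and 236 ± 51.5 CPM in AMs, with no overlap and an adjusted p of 0.0915. The difference passed the test with DESeq2 (adjusted p = 0.0295), with total-count scaling (0.0351), without the low-count filter (2.6e-04), with all 24 libraries fitted together (0.00814) and without replicate 3 of the day 14 IMs (0.0266). Of the 150-base windows of the longest C4b coding transcript, 8.26% were identical in its neighbour and near copy C4a. The count of C4b is uncertain by the reads of those windows. C4a itself had group means of 0.439 to 0.983 CPM.

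C3 (ENSMUSG00000024164, chromosome 17, 57203970 to 57228136, minus strand) is the protein on which all complement pathways converge. Wild-type IMs held 515, 539 and 482 CPM after PBS and 247, 263 and 267 CPM after bleomycin, a 2.04-fold fall with no overlap (log2 fold change -1.03 ± 0.05, adjusted p = 4.1e-14). Over the same groups mean marker sums fell for lung epithelium (5509 to 94.6 CPM), fibroblasts (199 to 46.6 CPM) and neutrophils (8032 to 1615 CPM). Those of classical monocytes (2810 to 8318 CPM) and of NK and T cells (99 to 142 CPM) rose. The part of these cells in the C3 level was not tested. The highest C3 level of the series was in EGFP- IMs at day 7, at 790, 756 and 749 CPM, while EGFP+ IMs held 526, 415 and 473 CPM. These groups did not overlap, yet the difference of -0.75 ± 0.42 had an adjusted p of 0.205 in the fit that includes the day 14 IMs. With only the EGFP+ and EGFP- groups in the fit the adjusted p was 1.3e-06.

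In the day 14 IMs, C3 was at 76.8 CPM in replicate 1, the library that stood apart, and at 248 and 273 CPM in replicates 2 and 3. The change from day 7 to day 14 was -0.98 ± 0.42 on the log2 scale with an adjusted p of 0.0825. Without replicate 1 it was -0.59 with an adjusted p of 2.8e-04. It also passed the test with total-count scaling (adjusted p = 0.0308) and with all 24 libraries fitted together (0.0145). In AMs C3 was at 242 to 261 CPM after PBS, 174, 279 and 302 CPM at day 14 and 275 to 291 CPM at day 30. The adjusted p against PBS was 0.3 at day 14 and 0.157 at day 30. Without replicate 1 of the day 14 AMs it was 1.1e-04 at day 14 (log2 fold change 0.42). At day 30 it was 0.0267 without the low-count filter and 1.1e-04 with only the day 30 and PBS groups in the fit. All 7 fibroblast markers tested were higher at day 30 than after PBS (mean sums of 90.5 and 10.3 CPM). Of 9 neutrophil markers tested 6 were higher and 0 lower, and of 10 epithelial markers 3 were higher and 4 lower. The part of these cells in the C3 level at day 30 was not tested. After PBS, C3 was 2.06-fold lower in EGFP+ AMs than in wild-type IMs (adjusted p = 3.1e-12). The lung epithelial, fibroblast and neutrophil sums were also lower in those AMs, at 330, 10.3 and 174 CPM. In the IMs they were 5509, 199 and 8032 CPM, and 1 of 11 epithelial markers was higher in the AMs. Their part in the C3 level was not tested.

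Cfb (ENSMUSG00000090231, chromosome 17, 34856374 to 34862518, minus strand), the protease subunit of the alternative pathway, had 0 to 34 counts per library. Of its 2825 exonic bases, 79.5% are shared with the readthrough model Gm20547, whose count was 0 in every library. Reads in the shared bases are commonly left unassigned by counting programs, and Cfb may be understated by an amount that was not measured. In wild-type IMs after PBS the 3 libraries held 1 count in all, and after bleomycin 86 counts. The ratio of counts, scaled to the totals, was 79.5 with a counting interval of 13.9 to 3175 (95%, exact). The edgeR call had an adjusted p of 2.6e-07. The single count was in replicate 1, and without it the level after bleomycin was at least 17.9-fold higher, against a floor of 3 counts over the group. The AMs after PBS held 82 counts, 57.4 times the level of wild-type IMs after PBS (interval 10 to 2295, adjusted p = 2.7e-06), or at least 12.9-fold higher without replicate 1 of the PBS IMs. Without replicate 2 of those IMs the ratios were 51.6 after bleomycin (9.02 to 2061) and 37.3 for the AMs (6.51 to 1491). In the other 7 groups the means ran from 0.897 to 1.81 CPM, each overlapping the next in order. No comparison among those 7 groups passed the test for Cfb, with adjusted p of 0.135 to 0.847.

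Cfp (ENSMUSG00000001128, chromosome X, 20925454 to 20931555, minus strand), which encodes properdin, had group means from 133 ± 1.01 CPM in AMs after PBS to 277 ± 43.6 CPM in IMs at day 14. In AMs it rose from 132, 134 and 134 CPM after PBS to 245, 220 and 268 CPM at day 14, 2.09-fold (adjusted p = 1.7e-08). It was at 160, 160 and 162 CPM at day 30, 1.31-fold above PBS (adjusted p = 0.0011) and 1.6-fold below day 14 (adjusted p = 9.2e-06). In wild-type IMs it was 1.35-fold higher after bleomycin (adjusted p = 3.7e-06), and in EGFP+ IMs 1.89-fold higher at day 14 than at day 7 (adjusted p = 1.5e-04). EGFP+ and EGFP- IMs at day 7 held 173 ± 11.9 and 172 ± 9.11 CPM (adjusted p = 0.815). The gates did not pass the test at day 14 (adjusted p = 0.251) or after PBS (0.186), although without replicate 2 of the wild-type PBS IMs the PBS difference of -0.17 had an adjusted p of 0.0123.

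Hc (ENSMUSG00000026874, chromosome 2, 34983331 to 35061438, minus strand), which encodes C5, was at 73.2, 68.1 and 62.1 CPM after PBS in wild-type IMs and at 0.242, 0.336 and 0.186 CPM after bleomycin. The fall was 264-fold (log2 fold change -8.04 ± 0.16, adjusted p = 4.2e-21). Over the same groups the sum of 11 lung epithelial markers went from 5509 ± 1117 to 94.6 ± 13.7 CPM, and 10 of the 11 were lower. Scgb1a1, of club cells, went from 3160 to 42.4 CPM and Sftpc, of alveolar type II cells, from 1362 to 9.02 CPM. The part of epithelial RNA in the Hc level was not tested. In AMs Hc was at 2.31, 3.42 and 2.74 CPM after PBS, had 4 counts in all at day 14, and was at 0.668, 1.08 and 0.592 CPM at day 30. It was 25.4-fold lower at day 14 than after PBS (adjusted p = 4.0e-06), 3.32-fold lower at day 30 (adjusted p = 0.0017) and 7.65-fold higher at day 30 than at day 14 (adjusted p = 0.0029). The epithelial sum of the AMs moved with it, at 330 ± 7.53, 29.9 ± 0.826 and 184 ± 28.8 CPM. In IMs after bleomycin the order of the means differed. The sum was 94.6 CPM in wild-type cells and 70.1 CPM in EGFP- cells, with Hc at 0.255 and 1.53 CPM. In EGFP+ IMs the sum was 99.5 CPM at day 7 and 69.9 CPM at day 14, with Hc at 1.07 and 0.0715 CPM. From day 7 to day 14, 9 of 11 epithelial markers were lower there and 1 was higher. EGFP+ IMs held 51 counts at day 7 and 3 at day 14, and the level at day 7 was 16.5 times that at day 14 (counting interval 5.34 to 82.7). Replicate 3 of the day 7 cells held 31 of the 51 counts, and without it the ratio was 9.82 (2.91 to 51.6). Replicate 1 of the day 14 cells held all 3 counts there, and without it the day 7 level was at least 11.5-fold higher, against a floor of 3 counts over the group. In the day 14 AMs replicate 3 held 3 of the 4 counts. Without it the level after PBS was 80.2 times that at day 14 (14.2 to 3186), against 31 (11.9 to 115) with it, and that at day 30 was 22.1 times (3.73 to 896), against 8.54 (3.07 to 33). Gm13449, an antisense gene with at most 45 counts in a library, shares 76 exonic bases with Hc.

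**Figure D4:**
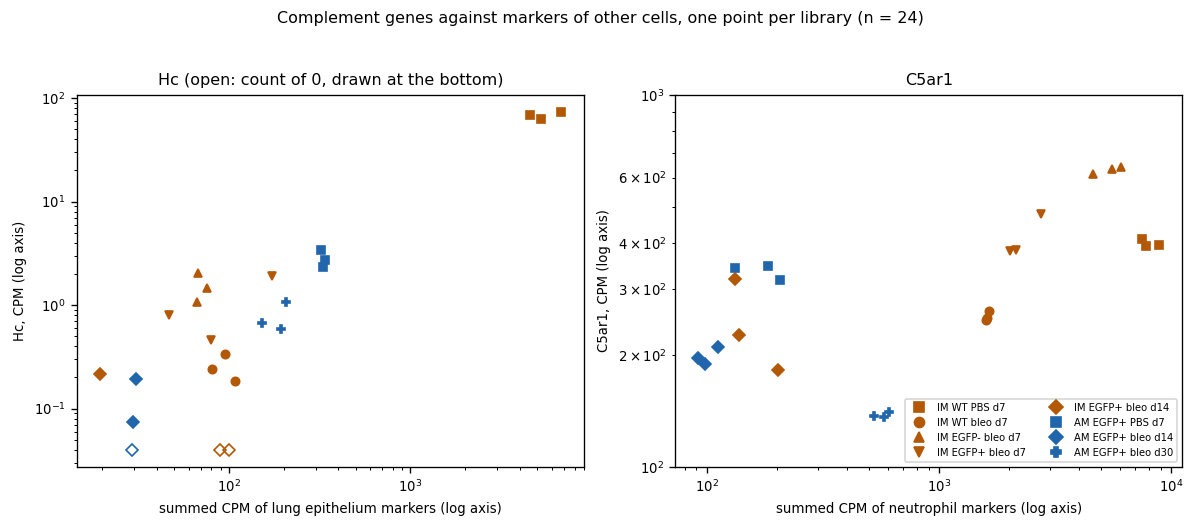
Level of Hc against the summed level of 11 lung epithelial markers (left) and of C5ar1 against that of 10 neutrophil markers (right), in CPM on log axes, with 1 point per library and a symbol per group (orange, IM gate; blue, AM gate; open symbols, a count of 0). The wild-type PBS IMs lie apart at the top right on the left side, at 62.1 to 73.2 CPM of Hc, and the EGFP- IMs are highest for C5ar1 at 614 to 639 CPM.

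C3ar1 (ENSMUSG00000040552, chromosome 6, 122847138 to 122856161, minus strand), the receptor of C3a, was at 92, 65 and 62.2 CPM after PBS in wild-type IMs and at 338, 326 and 314 CPM after bleomycin. The rise was 4.33-fold (log2 fold change 2.11 ± 0.16, adjusted p = 1.1e-04). In AMs it was at 3.19, 1.71 and 4.44 CPM after PBS, 31.9, 28.8 and 25.1 CPM at day 14 and 33.6, 40.9 and 33.4 CPM at day 30. It was 10.7-fold higher at day 14 (adjusted p = 3.1e-08) and 12.8-fold higher at day 30 (adjusted p = 1.5e-08). From day 14 to day 30 it changed by 0.26 ± 0.19 on the log2 scale (adjusted p = 0.3), and whether this step differed from that of C1q and C4b was not tested. The gates stayed apart at day 14, with 249 ± 55.8 CPM in IMs and 28.6 ± 3.45 CPM in AMs, 9.35-fold (adjusted p = 8.2e-07). After PBS the EGFP+ AMs held 24.1-fold less than wild-type IMs (adjusted p = 1.0e-04).

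In EGFP+ IMs at day 7 C3ar1 was 1.28-fold above EGFP- IMs (248 ± 6.61 against 187 ± 14.8 CPM, adjusted p = 0.0298). The call was lost with all 24 libraries fitted together (adjusted p = 0.0822). It was also lost without replicate 1 (0.0507), 2 (0.0888) or 3 (0.113) of the EGFP- IMs and without replicate 1 (0.0673), 2 (0.0982) or 3 (0.0637) of the EGFP+ IMs. From day 7 to day 14 the EGFP+ IMs changed by 0.22 ± 0.11 with an adjusted p of 0.13, which was 0.0153 without replicate 3 of the day 14 IMs.

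C5ar1 (ENSMUSG00000049130, chromosome 7, 16246743 to 16259540, minus strand), the receptor of C5a, had lower levels after bleomycin in wild-type IMs and in AMs. Wild-type IMs held 411, 394 and 395 CPM after PBS and 249, 251 and 263 CPM after bleomycin, a 1.62-fold fall (log2 fold change -0.70 ± 0.05, adjusted p = 9.4e-12). In AMs it was at 348, 342 and 317 CPM after PBS, 210, 196 and 189 CPM at day 14 and 137, 140 and 136 CPM at day 30. It was 1.49-fold lower at day 14 (adjusted p = 4.9e-06) and 2.26-fold lower at day 30 (adjusted p = 9.7e-10), and it fell 1.52-fold between those days (adjusted p = 8.4e-06). Its highest level was in EGFP- IMs, at 614, 633 and 639 CPM, and EGFP+ IMs of that day held 480, 380 and 383 CPM, 1.57-fold less (adjusted p = 0.0072). At day 14 EGFP+ IMs held 1.48-fold less than at day 7 (adjusted p = 0.00894). The gates did not pass the test at day 14 (243 ± 70.8 CPM in IMs, 198 ± 10.6 CPM in AMs, adjusted p = 0.127), but did without replicate 3 of the day 14 IMs (0.0305).

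Neutrophils carry much C5ar1. The sum of 10 neutrophil markers in wild-type IMs was 8032 ± 751 CPM after PBS and 1615 ± 28.4 CPM after bleomycin, and it was 5410 ± 753 CPM in EGFP- and 2305 ± 398 CPM in EGFP+ IMs at day 7. All 10 markers were lower after bleomycin, and all 10 were lower in EGFP+ IMs. At day 14 the EGFP+ IMs were at 157 ± 38.9 CPM, and all 10 markers were lower there than at day 7. In AMs the sum was 174 ± 37.8 CPM after PBS, 100 ± 10 CPM at day 14, where Camp and Ly6g were at 0, and 571 ± 43.4 CPM at day 30, where C5ar1 was lowest. The part of neutrophil RNA in the C5ar1 levels of the IM gate was not tested.

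Of 48 further complement genes, 22 passed the filter in no comparison, among them the collectins Mbl1 and Mbl2, the protease Masp1, the terminal components C8a, C8b and C9, factor I (Cfi) and Vsig4. In AMs at day 14, 9 of the 24 tested were higher than after PBS (27.3% of all genes) and 6 lower (27.6%). Fcna (ficolin A) rose 40.5-fold from 0.503 to 18.8 CPM (adjusted p = 2.1e-11) and Cd93 3.81-fold (1.4e-10). At day 30, 10 of 24 were higher than after PBS (24.8% of all genes) and 4 lower (23.1%), with Fcna 21.1-fold and Cd93 4.46-fold higher. From day 14 to day 30, 8 of 24 rose (19.6% of all genes) and 5 fell (18.7%). Cd55, a decay-accelerating inhibitor, rose 6.07-fold (adjusted p = 4.8e-08) and Cr2, a receptor typical of B cells, rose 8.27-fold from 0.37 to 3.23 CPM (8.2e-06). The sum of 8 B cell markers rose over the same days from 17.1 ± 2.94 to 432 ± 52.8 CPM, and its part in the Cr2 level was not tested.

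In EGFP+ IMs, 7 of the 23 further genes tested rose from day 7 to day 14 (25.3% of all genes) and 7 fell (26.9%). Fcna rose 6.06-fold (adjusted p = 1.9e-07) and Cr1l, a membrane inhibitor of C3 activation, 1.59-fold (5.4e-05). At day 7, 7 of 23 were higher in EGFP+ than in EGFP- IMs (17.2% of all genes) and 4 lower (17.6%). The collectin Colec12 was 3.11-fold higher (adjusted p = 4.8e-05) and C1ra, a protease of the C1 complex, 2.99-fold higher (8.0e-05), while C5ar2, another C5a receptor, was 1.70-fold lower (5.7e-04). In wild-type IMs after bleomycin, 6 of 25 rose (35.6% of all genes) and 13 fell (34.5%). Cd55 fell 3.02-fold (adjusted p = 1.7e-15), and Itgax, the alpha chain of complement receptor 4, rose 1.73-fold (2.7e-12) and C1qbp 2.27-fold (5.8e-12). Between gates at day 14, 2 of 18 were higher in IMs (10.8% of all genes) and 3 lower (10.2%), the latter being C1ra, C5ar2 and Colec12 at 1.78-fold, 1.90-fold and 2.46-fold. After PBS, 8 of 25 were higher in EGFP+ AMs than in wild-type IMs (39.7% of all genes), led by Itgax at 5.74-fold and Colec12 at 7.69-fold, and 13 were lower (39.2%), led by Cd93 at 5.98-fold.

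The genes whose levels ran most like those of a complement gene were ranked by Pearson's r of log2 CPM over the 24 libraries among 9511 genes. The libraries form 8 groups of 3, share their gates and tables, and are not independent points, so r is a description. For C1qa the nearest were Rgs10 (r = 0.982), Apoe (0.977), Scpep1 (0.973), Lat2 (0.968) and Ms4a7 (0.963). Each of the 5 had its highest group mean in IMs at day 14 and its lowest in AMs after PBS, as C1qa had. Apoe, the lipid carrier apolipoprotein E, spanned 163 to 21353 CPM. For C3 they were Tnip1 (0.947), Agrn (0.933), Optn (0.930), Nfkb1 (0.897) and Rhbdf2 (0.897), all highest in EGFP- IMs and lowest in IMs at day 14. For Hc they were Slc34a2 (0.963), Sftpd (0.959), Cyp4b1 (0.958), Adgrf5 (0.957) and Ces1d (0.948), all highest in wild-type IMs after PBS. Sftpd, a surfactant protein of the epithelium, was at 76.9 CPM there and 0.0743 CPM in AMs at day 14.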

How the data were processed

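The submitters' processing notes name FastQC 0.11.5 for read quality, Trimmomatic 0.38 for trimming, HISAT2 2.1.0 with GRCm38 for alignment, SAMtools, and featureCounts 1.6.3 for counting. The annotation release and strand setting are not given in the sources used here. What the authors deposited are raw counts by gene, in a table of 49585 genes (15 libraries used) and a table of 55487 genes (9 libraries). Another 3 columns match no sample and were left out. Rows were joined by gene ID. The 49022 shared genes hold at least 99.5% of each library's counts.

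Levels are CPM of the total count, and levels across genes are CPM per kb of the exons in mouse GENCODE gene models. Exon overlaps and the C4 transcripts come from the same GENCODE release, which may differ from the one the submitters used. Fold changes come from edgeR 4.0.16 in R 4.3.3 (TMM, filterByExpr, robust quasi-likelihood F test, 2-sided, group as the only term). Every adjusted p is from this test over all genes tested, unless another tool is named. The SE is the absolute log2 change over the square root of F. The 6 wild-type IM libraries, the 9 reporter IM libraries, the 9 AM libraries, the 6 day 14 libraries and the 6 PBS libraries were fitted separately. Ratios in which a group held 1 to 4 counts in all carry exact 95% intervals. These cover counting error only, since the reads have no molecular identifiers.

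The complement genes, the lists and the tests were chosen with earlier results of these data known. Named are all 10 genes, the sort genes, and for each comparison the 3 called genes with the smallest p among 48 further complement genes, of which 1 gene is not reported here. Also named are the 5 genes of most like pattern to C1qa, C3 and Hc with at least 10 CPM in their highest group (log2 CPM with a prior count of 2), leaving out predicted genes and pseudogenes. Alternatives were DESeq2 1.42.0, total-count scaling, no low-count filter, other sets of libraries in the fit, a replicate block and each library left out.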

Additional observations from a re-analysis of the deposited data

Results flagged for a closer look

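The change after bleomycin was set against the same change in the other gate, as the log2 effect in EGFP+ AMs at day 14 minus that in wild-type IMs at day 7, in an edgeR fit of all 24 libraries. This test was added after the data were seen. Day, genotype, EGFP sort and deposited table differ along with the gate and cannot be told apart from it. Of 16687 genes tested, 39% were called at an adjusted p under 0.05, and 9 of the 10 complement genes were. On the log2 scale the rise of the C1q chains was larger in AMs, by 3.42 for C1qa, 3.91 for C1qb and 3.21 for C1qc. The AMs started from low levels, and in CPM the chains rose more in IMs. C1qa went from 13.3 to 325 CPM in AMs and from 450 to 1246 CPM in IMs. C4b, with effects of 5.78 in AMs and 0.24 in IMs, differed by 5.58, and C3ar1 by 1.34. Their levels in AMs after PBS were 4.89 and 3.11 CPM. Properdin (Cfp) differed by 0.67. C3, at 0.21 in AMs and -1.03 in IMs, differed by 1.27 (adjusted p = 0.0312), and Hc, which was lower after bleomycin in both, by 3.42 (0.0477). The AM effect of Hc rests on a day 14 group with 4 counts in all. After PBS Hc was at 2.82 CPM in AMs and 67.8 CPM in IMs. Cfb differed by -5.36, from 0.43 in AMs and 5.84 in IMs, the latter against a group with 1 count. C5ar1 fell in both, and the difference of 0.16 had an adjusted p of 0.441.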

How the results depend on the processing

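Direction and call were the same as reported in 868 of 917 values of a complement gene under an alternative. Values that changed sign were all of differences that had not passed the test. For Cfp in EGFP+ against EGFP- IMs they were 0.0028 with total-count scaling, 0.010 without the filter, 5.8e-04 with only the compared groups and 0.0047 without replicate 2 of the EGFP- IMs. For Cfb they were -0.031 and -0.037 in EGFP+ against EGFP- IMs without replicates 1 and 2 of the EGFP+ IMs (range with a library left out -0.037 to 0.37). In AMs at day 30 against PBS they were -0.0011 with total-count scaling, -0.044 without replicate 2 of the PBS AMs and -0.19 without replicate 1 of the day 30 AMs (range -0.19 to 0.35). For C3 they were -0.12 from day 14 to day 30 without replicate 1 of the day 14 AMs (range -0.12 to 0.26) and 0.22 between gates without replicate 1 of the day 14 IMs (range -0.52 to 0.22). For the difference of bleomycin effects, total-count scaling gave -0.10 for C5ar1, and C3 (1.01, adjusted p = 0.0586) and Hc (3.16, 0.0586) lost the call.

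Genes called in EGFP+ against EGFP- IMs numbered 5206, and 3280 to 4221 with a library left out (3280 without replicate 2 of the EGFP+ IMs). Between gates at day 14 they numbered 2832, 1840 to 3326 with a library left out (1840 and 1881 without replicates 2 and 3 of the day 14 AMs), and 5906 with all 24 libraries fitted together, where 7 complement genes were called in place of 4. Total-count scaling moved the median of all genes by -0.22 (IMs, day 14 against day 7), -0.19 and -0.11 (AMs at days 14 and 30 against PBS) and -0.11 (gates at day 14). The labels do not say whether replicate numbers pair the libraries, and no pairing was used in the main fits. Every library correlated best with its own number in 3 comparisons, a hint from the data and not from the design: gates at day 14 (0.177, 0.087 and 0.121), gates after PBS (at most 0.045) and AMs at day 14 against PBS (at most 0.047). With the replicate block the counts of genes called stayed within 1.5 times of those without it, C1qc from day 14 to day 30 had an adjusted p of 0.0652 and C4b between gates at day 14 one of 0.00255, and no other call of a complement gene changed. Depth limits Cfb and Hc, whose groups held as few as 1 and 3 counts.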
